A study of Homo sapiens with 17 samples.

Results

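The 9 genes described here are the D-type cyclins CCND1, CCND2 and CCND3, the cyclin-dependent kinase gene CDK6, the growth regulator MYC, and the genes of the CDK inhibitors p21 (CDKN1A), p27 (CDKN1B), p16 and p14ARF (CDKN2A) and p15 (CDKN2B). They were taken by name as a set of regulators of entry into the cell cycle, 9 of 19821 protein-coding genes of the GRCh38.p14 gene table. D-type cyclins bind CDK4 and CDK6, and the active kinase phosphorylates the retinoblastoma protein, which releases E2F factors and lets the cell enter S phase. The p15 and p16 inhibitors bind CDK4 and CDK6 directly, p21 and p27 bind cyclin-CDK complexes, and MYC drives growth genes and opposes several of these inhibitors. Cyclin D1 is a textbook target of AP-1, the family of FOS and JUN dimers to which FOSL2 belongs.

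The data are lists of ChIP-seq peaks, places where sequenced chromatin fragments pulled down with an antibody pile up. All cells were A549, a line long established from a human lung carcinoma. A549 cells carrying A-Fos integrated with piggyBac gave 2 libraries each of FOXA1 and of FOSL2 after 48 h in 1 µg/mL doxycycline, which induces A-Fos, and 2 of each without doxycycline. A-Fos is a dominant-negative form of FOS that pairs with JUN proteins and keeps the pair off DNA. WT A549 cells, which were untreated, gave 2 libraries each of FOXA1, of H3K9me3 and of H3K27me3. H3K27me3 is the mark laid down by Polycomb, and H3K9me3 marks constitutive heterochromatin. FOXA1 is a forkhead pioneer factor of lung and other endodermal epithelia. Whether the A-Fos line is 1 clone is not given in the sources used here, and doxycycline-treated cells lacking A-Fos were not analysed here, so A-Fos and doxycycline cannot be told apart. The comparison with and without doxycycline asks which binding sites of FOSL2 and FOXA1 are still called when AP-1 is blocked.

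There was 1 peak list per library, 14 in all, and the lists hold no read counts, so the depth behind a peak is unknown. The lists differed in length: 1854 and 5274 FOSL2 peaks with doxycycline against 45586 and 14842 without, 11112 and 15065 FOXA1 peaks with doxycycline against 7633 and 13247 without, and 49448 and 80318 FOXA1 peaks in WT cells. Of 8 epithelial and lung marker genes, 7 had a FOXA1 region called in both WT libraries, the exception being NKX2-1. Such a region was also present at 3 of 5 blood, muscle and neuron markers and at 72% of all protein-coding genes. H3K27me3 covered at least 10% of the gene in both libraries at 4 of these 5 markers, the exception being PTPRC. That cover was met by 17.2% of all genes. NKX2-1, which encodes a factor of lung epithelium, had 57.6% and 78.1% of its length under H3K27me3.

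FOSL2 peaks lay in or near 7 of the 9 genes, as they did for 81.3% of all protein-coding genes. In all 7 both doxycycline libraries had fewer peaks than both libraries without it. That pattern held for 37.4% of all protein-coding genes, the opposite one for 0.111% of them and for no member. All FOSL2 peaks within the gene and 50 kb either side were counted. CDK6 had 0 and 5 FOSL2 peaks with doxycycline, against 15 and 8 without. CCND3 had 0 and 0 with doxycycline, against 9 and 3 without. MYC had 0 and 0 with doxycycline, against 8 and 1 without. In the other 4 genes the doxycycline libraries were also empty: CDKN1A and CDKN1B each had 4 and 1 peaks without doxycycline, and CCND1 and CCND2 each had 2 and 1. CDKN2A and CDKN2B had 0 in every library. The first library without doxycycline held more peaks than the second at each of the 7 genes, as it did over the whole genome. An exact two-sided permutation test gave p = 0.333 for each of the 7 genes, the smallest p that 2 libraries against 2 allow, so none could pass a threshold of 0.05. With peaks of q 0.001 or less the pattern held for 5 of the 7: the difference of mean peak number, doxycycline minus none, was 0 at CCND2 and -2 at CDKN1B, and the exact p was 1 for both.

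**Figure D1:**
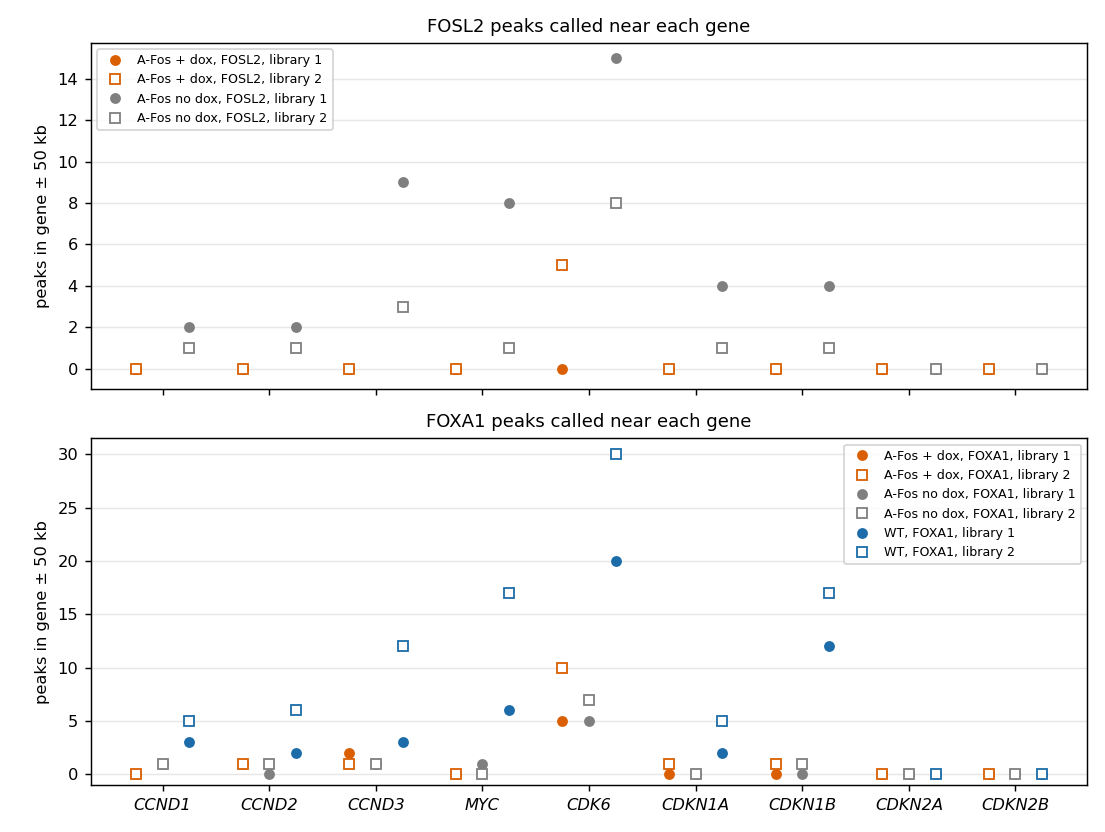
Number of peaks called in each gene and 50 kb either side, by library (vertical axis, peaks). The upper panel shows FOSL2 and the lower panel FOXA1, with filled circles for library 1 and open squares for library 2, which covers the circle where both are equal. The FOSL2 points with doxycycline lie at 0 in every gene except CDK6, where library 2 has 5, and both CDKN2 genes are at 0 throughout.

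Peaks of the 4 A-Fos lists of a factor that overlapped by at least 1 bp were joined into regions. A region was called lost when it was in both lists without doxycycline and in neither with it, kept when it was in all 4, and gained when it was in both lists with doxycycline and in neither without. By these rules 5 of the 9 genes had a lost FOSL2 region within 50 kb (CCND1, CCND3, MYC, CDK6 and CDKN1A), against 38.9% of all protein-coding genes. No member had a kept or a gained FOSL2 region, which were found at 0.0404% and 0.116% of all genes. A FOSL2 region in both libraries without doxycycline, lost or not, occurred at the same 5 members and at 39.1% of all genes, and one in both libraries with doxycycline at no member and at 0.257% of all genes. The 5 genes held 13 lost FOSL2 regions between them, 10 of them inside a gene. A further 39 FOSL2 regions had another pattern: 31 were called in the first library without doxycycline alone, 3 in the second alone and 5 in the second doxycycline library alone. Taking the class without the second library lacking doxycycline, the shorter of that pair of lists, gave 44 lost regions in place of 13. With each of the 4 lists cut to its 1854 strongest peaks by fold, the length of the shortest, 3 regions were lost, all in CDK6, so the count of 13 moved with list length. None of the 13 lay in H3K9me3 or H3K27me3 of WT cells.

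CDK6, the kinase partner of the D-type cyclins, held 7 of the 13 lost FOSL2 regions. Its interval is also the longest of the set at 232 kb, so the number was also taken per length: 2.11 lost regions per 100 kb of gene and flanks, above 97.3% of all protein-coding genes. CCND3 followed with 1.39 per 100 kb, and MYC, CDKN1A and CCND1 with 0.930, 0.902 and 0.882, each from 1 region. The order among these last 3 rests on the length of the interval alone. The median over all genes was 0.

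All 7 lost CDK6 regions lay inside the gene, at chr7:92604921-92836573 on the minus strand, between 26.6 and 203 kb from its start. The highest by the mean fold of both libraries was at chr7:92633253-92633809, 203 kb into the gene, with 44.8-fold and 9.40-fold enrichment in the 2 libraries without doxycycline, above 98.3% and 88.5% of the peaks of their lists. Enrichment is the authors' own fold over background and was used to place a peak within its list. The next was at chr7:92763498-92764034 with 37.4-fold and 11.5-fold enrichment. The third, at chr7:92809699-92810151, reached 36.7-fold and 9.49-fold. In the second library alone the order was different, and chr7:92633253-92633809 had the lowest fold of the 3. Over the 13 lost regions of the 5 genes the range was 9.47 to 44.8-fold in the first library and 3.61 to 11.5-fold in the second.

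The 5 FOSL2 peaks of the second doxycycline library near CDK6 also lay inside the gene, with 3.06 to 5.18-fold enrichment. None of them overlapped a FOSL2 region called without doxycycline, and none was called in the first doxycycline library. That list as a whole reached no more than 6.77-fold, and the strongest of the 5, at 123.6 kb from the start of CDK6, ranked 75 of its 5274 peaks.

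**Figure D2:**
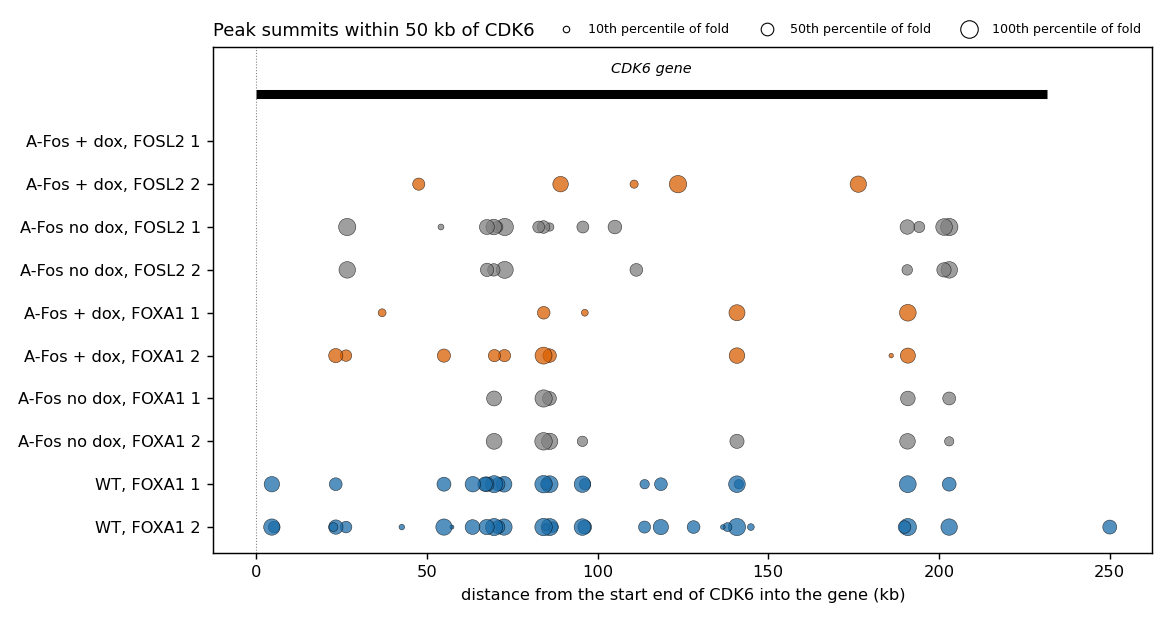
Summits of FOSL2 and FOXA1 peaks within 50 kb of CDK6, 1 row per library, against distance from the start of the gene into its body (kb). The area of a circle grows with the percentile of the peak's fold enrichment within its own list, and the black bar is the gene. The lost FOSL2 regions lie 26.6 kb, 67.6 to 72.8 kb and 191 to 203 kb from the start in the rows without doxycycline, and the 5 summits of the second doxycycline FOSL2 library lie elsewhere.

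MYC, a basic helix-loop-helix factor that drives growth, had 1 lost FOSL2 region, at the downstream end of the gene. It spanned chr8:127742938-127743451, across the last base of the gene interval, with 32.2-fold and 7.52-fold enrichment without doxycycline, above 95.4% and 80.6% of peaks. The other 7 FOSL2 regions near MYC were called in the first library alone, with 2.32 to 9.78-fold enrichment, 6 of them beyond the downstream end. Counting regions of any library, MYC had 7.44 per 100 kb, above 98.1% of genes, against a median of 1.74.

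CCND3, the gene of cyclin D3, had 3 lost FOSL2 regions. At chr6:41967005-41967932, inside the gene, enrichment was 16.7-fold and 4.83-fold without doxycycline. At chr6:41976783-41977297, also inside, it was 13.0-fold and 6.01-fold. The third, at chr6:41917421-41917953, lay 17.0 kb beyond the downstream end, within the intervals of BYSL and MED20, with 19.9-fold and 6.39-fold enrichment. CDKN1A, the p53 target that encodes p21, had 1 at chr6:36644563-36645161, 31.3 kb upstream of the gene, with 11.5-fold and 4.10-fold enrichment.

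CCND2 and CDKN1B had no lost region, because no FOSL2 region near them was called in both libraries without doxycycline. The 3 FOSL2 peaks near CCND2 were weak, at 2.49, 2.64 and 2.88-fold, and all 3 lay in H3K27me3 of WT cells. Near CDKN1B the 4 peaks of the first library had 8.11 to 13.2-fold enrichment and the 1 peak of the second, 28.3 kb upstream, had 3.13-fold, at a different site.

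With the lists as deposited, CCND1 and CDK6 were the genes at which FOSL2 and FOXA1 were lost at the same site. With the lists of each factor cut to equal length, no member had a FOXA1 region on a FOSL2 region without doxycycline. Neither joint loss was then left, so both depended on list length. Just beyond the downstream end of CCND1 (chr11:69641156-69654474), FOSL2 was called at chr11:69654826-69655246 with 10.5-fold and 3.61-fold enrichment without doxycycline and in neither doxycycline library. These FOSL2 peaks stood above 71.0% and 28.0% of the peaks of their lists. FOXA1 was called at chr11:69654684-69655361 with 4.93-fold and 15.0-fold enrichment without doxycycline and in neither doxycycline library. The summits of the factors were 14 bp apart in the first pair of libraries and 39 bp apart in the second. CCND1 was the 1 member with fewer FOXA1 peaks in both doxycycline libraries than in both without (0 and 0 against 1 and 1), a pattern of 4.48% of all genes, and no member had more in both, a pattern of 6.81%. The exact two-sided permutation p for CCND1 was 0.333, again the smallest possible with 2 libraries per group.

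In WT cells the same place carried a FOXA1 peak in both libraries, ranked very differently by each. It reached 596-fold enrichment in the first WT library, rank 2 of 49448 peaks, and 104-fold in the second, rank 666 of 80318. The called interval was chr11:69653808-69655876 in the first library and started 1 bp later in the second, so that both peaks were about 2 kb wide and ended on the same base. Of 37139 overlapping pairs of WT FOXA1 peaks, 5 (0.0135%) agreed at both ends to within 1 bp, and of the 161 pairs whose first peak was at least 1 kb wide, this was the 1 that did. What gave the WT peak its shared ends and its height in the first library was not tested. In the A-Fos line without doxycycline the FOXA1 summits lay 546 and 541 bp beyond the gene, in peaks 353 and 678 bp wide. In WT cells the summit lay 964 bp beyond the gene in the first library and 542 bp in the second, so the first WT library stood apart from the other 3. WT and A-Fos peaks came from lists of unequal length whose peak names follow different schemes, so their folds are set side by side and not compared.

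**Figure D3:**
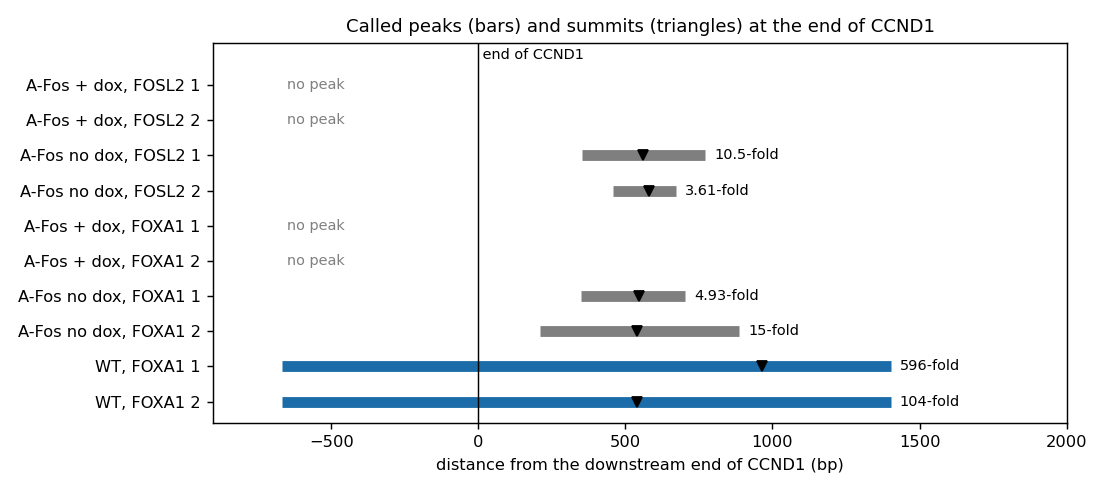
Called peaks (bars) and their summits (triangles) at the downstream end of CCND1, 1 row per library, against distance from that end (bp), with the authors' fold enrichment beside each bar. The 4 doxycycline rows hold no peak, the 4 rows without doxycycline have summits between 541 and 580 bp, and the first WT summit lies apart at 964 bp.

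FOXA1 was called in some A-Fos library near 7 of the 9 genes, against 53.6% of all genes. CDK6 had most, with 5 and 10 FOXA1 peaks with doxycycline, against 5 and 7 without, and the other 6 had 0 to 2 in each library. Outside CCND1 the numbers with and without doxycycline overlapped or met, and the exact two-sided permutation p was 1 for each of these genes. Of the 22 FOXA1 regions near these genes, 3 were kept, 2 were lost, 0 were gained and 17 had another pattern. Lost regions occurred at 2 members (CCND1 and CDK6), against 9.03% of all genes. Kept regions occurred at CCND3 and CDK6, against 14.7% of all genes, and gained regions at none, against 6.97%. A region in both doxycycline libraries, whatever the others held, occurred at 2 members and 24.7% of all genes, and one in both libraries without doxycycline at 3 members and 22.7%. Leaving out the first doxycycline FOXA1 library gave 6 gained and 5 kept regions, and leaving out the second gave 4 gained and 4 lost, so these small numbers depended on the library. With all FOXA1 lists cut to 7633 peaks the counts were again 2 lost, 3 kept and 0 gained. The lost CDK6 region was then a different one. That of the deposited lists, chr7:92633383-92633827, stood above only 25.1% of the 13247 peaks of the second list without doxycycline. It fell outside the cut there.

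The kept CCND3 region, chr6:41967607-41968154, had 11.9-fold and 13.0-fold FOXA1 enrichment with doxycycline and 8.55-fold and 10.5-fold without. It overlapped a lost FOSL2 region, and the summits of the factors were 676 and 611 bp apart. One kept CDK6 region, chr7:92751997-92752927, had 4.48-fold and 15.8-fold FOXA1 enrichment with doxycycline, above 50.2% and 93.8% of the peaks of those lists, and 21.5-fold and 60.3-fold without, above 96.7% and 99.6%. The lists differ in length, so these places within a list measure no change in binding. The other kept CDK6 region, chr7:92645445-92646045, had 11.1-fold and 7.12-fold with doxycycline and 7.66-fold and 11.2-fold without. The lost CDK6 region, chr7:92633383-92633827, had 5.96-fold and 4.66-fold enrichment without doxycycline and lay on the lost FOSL2 region at chr7:92633253-92633809, with summits 17 and 21 bp apart.

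FOXA1 and FOSL2 shared sites near 3 of the 9 genes in cells without doxycycline, against 8.24% of all genes. With all FOSL2 lists and all FOXA1 lists cut to equal length there were none. The lists as deposited gave 5 such FOXA1 regions, 1 at CCND1, 1 at CCND3 and 3 at CDK6. With doxycycline, FOSL2 was called at none of the 5, while FOXA1 was lost at 2, kept at 2 and called in the second library alone at the remaining one, chr7:92766584-92767117 in CDK6. The summits of the factors were 14 to 149 bp apart at the CCND1 and CDK6 sites and 676 and 611 bp apart at CCND3.

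FOXA1 in WT cells was called in both libraries at 42 regions near 7 of the 9 genes, the exceptions being CDKN2A and CDKN2B, and 72% of all genes had such a region. Another 51 regions were called in 1 WT library, 50 of them in the second. Regions of any WT library lay at the same 7 members and at 89.4% of all genes. Without the first library the number of regions was 92 in place of 42, and with the FOXA1 lists of both lines cut to 7633 peaks it was 7. CDK6 had 18 of the 42, CDKN1B 10, MYC 6, CCND3 3, CCND1 and CDKN1A 2 each, and CCND2 1. Per 100 kb the order changed: CDKN1B had 9.52 regions, above 99.8% of all genes, MYC had 5.58 and CDK6 5.43, above 97.7% and 97.4%. CCND2 was lowest of the 7 at 0.760, against a median over all genes of 0.962. Of the 42 WT regions, 7 overlapped a FOXA1 region called in both A-Fos libraries without doxycycline. At CDKN1B none of the 10 did: a FOXA1 peak was called there in 1 of 2 libraries with doxycycline (7.18-fold) and in 1 of 2 without (4.60-fold), at one site 48.9 kb upstream.

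At MYC a WT FOXA1 region covered the start of the gene, chr8:127735250-127736292, with 9.61-fold and 22.6-fold enrichment, the strongest of its 6 by the mean of both libraries. At CDK6 the strongest WT region, chr7:92751929-92753016, had 77.4-fold and 117-fold and lay on the kept A-Fos region described above. The strongest at CCND3, chr6:41967008-41968229, had 17.6-fold and 51.5-fold and also lay on a kept region. At CDKN1A the strongest, chr6:36711791-36712211, had 8.81-fold and 14.1-fold within RAB44, beyond the downstream end, and at CCND2 the only one, chr12:4259998-4260244, had 6.19-fold and 3.71-fold, 13.5 kb upstream.

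CDKN1B, the gene of p27, was thus the inhibitor gene with the most FOXA1 regions in WT cells. They ran from 48.9 kb upstream to 35.1 kb beyond the downstream end, with 3.74 to 12.7-fold enrichment in the first library and 5.81 to 17.6-fold in the second. The strongest by the mean of both, chr12:12667944-12668458, had 11.0-fold and 17.6-fold, and 5 of the 10 lay in the interval of the neighbouring gene GPR19 as well. Those at chr12:12724933-12726027, chr12:12736942-12737463 and chr12:12757497-12757947 lay in the interval of APOLD1, on the other side. One region, chr12:12716943-12717547, covered the start of CDKN1B with 3.74-fold and 7.73-fold enrichment.

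Promoter sequence is shown for the members whose promoter window lay under a WT FOXA1 peak. RefSeq windows of 300 bases, from 250 before to 50 after a start, were held for 6 of the 9 genes (build GRCh38.p14): 10 windows for CDKN1A, CDKN1B, CDKN2A, CDKN2B, CCND3 and CDK6. Of these, the CDKN1B window (chr12:12717118-12717417, plus strand) lay under a FOXA1 peak in both WT libraries, the upstream CCND3 window (chr6:42048639-42048938, minus strand) under one in the second WT library alone, and the other 8 under no peak of any of the 14 lists. Capitals mark the motif found, and the sequences read 5′ to 3′ on the strand of the gene.
CDKN1B: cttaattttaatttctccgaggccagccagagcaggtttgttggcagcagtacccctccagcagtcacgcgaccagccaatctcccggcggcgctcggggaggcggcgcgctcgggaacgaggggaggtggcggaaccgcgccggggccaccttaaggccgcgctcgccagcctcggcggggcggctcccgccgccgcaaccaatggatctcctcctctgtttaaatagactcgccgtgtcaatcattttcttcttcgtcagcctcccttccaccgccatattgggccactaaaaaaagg
CCND3: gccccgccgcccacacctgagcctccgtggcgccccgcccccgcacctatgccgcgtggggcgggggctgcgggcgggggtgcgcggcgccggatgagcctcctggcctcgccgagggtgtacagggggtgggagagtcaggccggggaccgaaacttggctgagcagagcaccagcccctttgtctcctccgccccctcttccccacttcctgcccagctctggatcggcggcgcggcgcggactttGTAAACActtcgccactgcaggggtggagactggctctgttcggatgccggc
The windows were searched on both strands for the AP-1 motif TGANTCA, the forkhead motif TGTTTAC and the MYC E-box CACGTG. The capitals in CCND3 are the reverse complement of TGTTTAC, at base 249 of the window, and 3.42% of 34961 promoter windows hold that motif. The CDKN1B window held none of the 3. Among the remaining windows, the upstream CDK6 window held CACGTG at base 281, as do 7.27% of all windows, and no member window held TGANTCA, which 7.68% do.

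Among the 9 genes, H3K27me3 covered most of the body of CCND2 and less than 1% of the body of any other. In WT cells 92.5% of the CCND2 interval was covered in the first library and 100% in the second, more than in 99.2% and 99.1% of all genes, and both ends were covered in full. A cover of at least 10% in both libraries, the rule used for a marked gene, was met by 17.2% of all genes. CCND3 had 0.262% and 0.390%, and the other 7 had 0, among them CDKN2A and CDKN2B, which had no peak of any list. At CDK6 the nearest H3K27me3 peaks stopped short of the gene, at -0.489 and -0.446 kb from its start in the 2 libraries. The mark covered 24.4% and 27.7% of the 2 kb round the start and none of the body. With CCND2 that made 2 members with some cover within 1 kb of an end in both libraries, against 23.4% of all genes.

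No member had at least 10% of its body under H3K9me3 in both libraries, and 8.01% of all genes did. The libraries disagreed at CCND2, where 31.7% of the body was covered in the first and 1.01% in the second. CDK6 had 3.51% and 5.55%, CCND3 0.766% and 0.554%, and the other 6, again including CDKN2A and CDKN2B, had 0 in both. No end of a member was covered by H3K9me3 in both libraries, against 9.1% of all genes. Some cover shared by both libraries within 50 kb was found at 6 members for H3K9me3 and for H3K27me3, the exceptions for each being CDKN1A, CDKN2A and CDKN2B, against 81% and 71.2% of all genes.

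**Figure D4:**
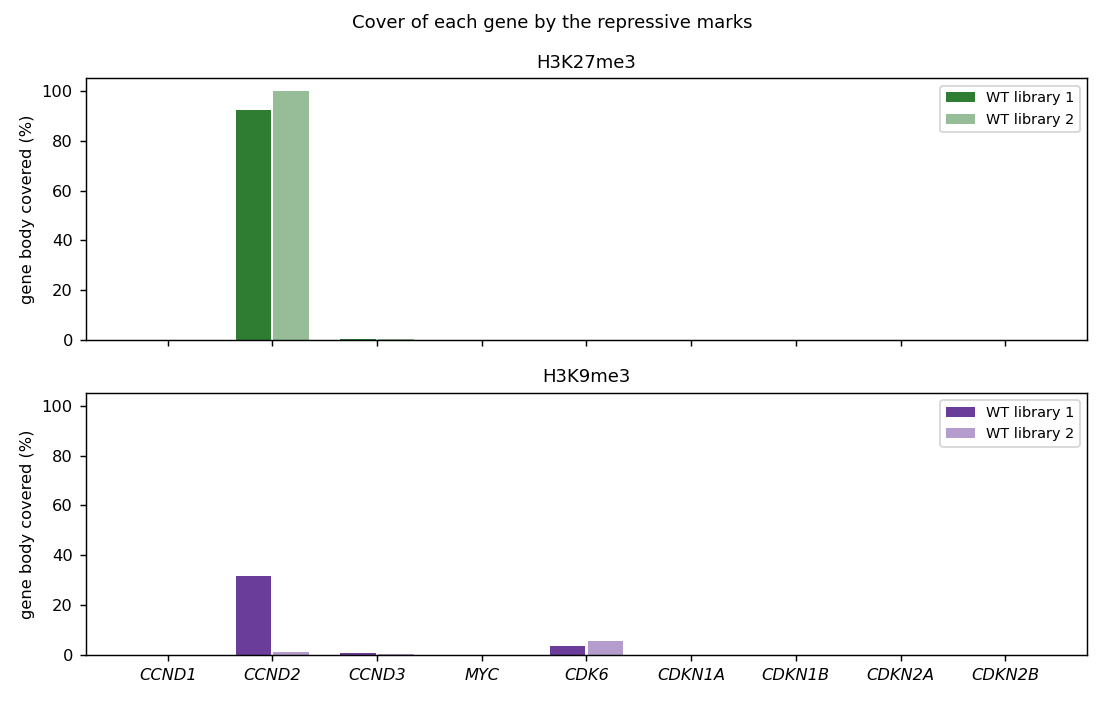
Share of each gene's body covered by H3K27me3 (upper panel) and H3K9me3 (lower panel) peaks in the 2 WT libraries (vertical axis, %). CCND2 stands at 92.5% and 100% for H3K27me3, and its H3K9me3 bars differ, at 31.7% and 1.01%.

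CDKN2A and CDKN2B, the neighbouring inhibitor genes on chromosome 9, had no peak of any of the 14 lists in the gene or within 50 kb. Of all protein-coding genes 2.53% (501) shared that, and 20.1% had no peak in the gene body. Their windows overlap, so they count as 1 place and not as independent cases. As background, A549 is known for a homozygous deletion that removes CDKN2A, and copy number was not tested because the lists hold no reads.

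The peak-free stretch ran over chr9:21832367-22124405, a length of 292 kb. It holds CDKN2A (chr9:21967752-21995324) and CDKN2B (chr9:22002903-22009313) whole, 109 kb of the 5′-methylthioadenosine phosphorylase gene MTAP at its lower edge, and 130 kb of the long noncoding RNA gene CDKN2B-AS1 at its upper edge. The nearest peak of any list was 135 kb below CDKN2A and 115 kb above CDKN2B. In the separate lists the gap was 292 to 1244 kb long. Against the median gap between chromosome 9 peaks of the same list it was 561 times as long in the first H3K27me3 list, the highest ratio, and 1.86 times in the first FOSL2 list with doxycycline, the lowest. The numbers in the peak names ran on without a missing number across the stretch in 14 of 14 lists. All 6 FOXA1 lists had their first peak above the stretch at one site, starting between base 22124406 and base 22124655, with 5.44 to 28.1-fold enrichment.

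Other genes lay in longer stretches. The one round CDKN2A was the 41st longest of 206 peak-free stretches that hold a whole protein-coding gene, and the longest, on chromosome 6, ran for 4978 kb with 171 genes. On chromosome 9 it was the fifth longest of all gaps.

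**Figure D5:**
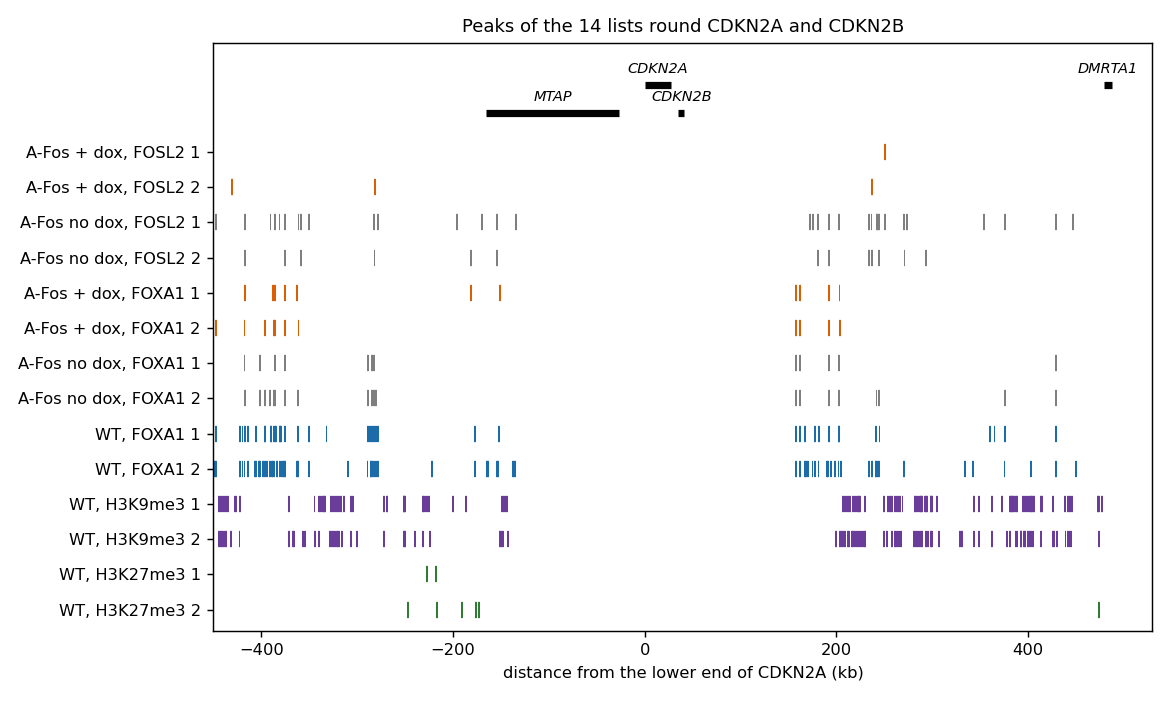
Peaks of the 14 lists round CDKN2A and CDKN2B, 1 row per library, against distance from the lower end of CDKN2A (kb), with the protein-coding genes as black bars. No row has a tick within 135 kb below CDKN2A or 115 kb above CDKN2B, and all 6 FOXA1 rows have their next tick at one place above the stretch.

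Other genes of the same pathway gave a setting for these counts. Of 20 further cyclins, kinases, retinoblastoma, E2F, inhibitor and MYC family genes, 5 had a lost FOSL2 region (CDK2, E2F2, CDKN1C, MYCN and MYCL). Over all protein-coding genes the share was 38.9%. None of the 20 had a kept or gained FOSL2 region. None had a lost FOXA1 region, against 9.03% of all genes. A kept one was at 2 (CDK1 and E2F2), against 14.7%, and a gained one at 2 (MYCL and MAX), against 6.97%. A WT FOXA1 region in both libraries was present at 14 of the 20, against 72% of all genes. H3K27me3 marked 2 of the 20, MYCN and MYCL, and H3K9me3 marked none, against 17.2% and 8.01% of all genes. No gene of the 20 had a FOXA1 region on a FOSL2 region in cells without doxycycline, against 8.24% of all genes.

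The gene whose peak numbers per 100 kb were most like a member's over the 14 lists was found for the 6 members with peaks in at least 8 lists. Pearson's r was 0.958 for CDK6 with CNTRL, 0.952 for CCND1 with PHLDB3 and for CCND3 with PCMT1, 0.934 for CCND2 with TWIST2, 0.922 for CDKN1B with AKAP10 and 0.916 for MYC with MILR1. Each is the highest of all protein-coding genes over 14 points that share list lengths and antibodies, and is a description only.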

How the data were processed

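The series has 17 ChIP-seq samples of WT A549 cells and of the A-Fos line, grouped and numbered by their titles, which name biological replicates. The 3 inputs were not analysed here. Per the labels' protocols, fixation was in 1% formaldehyde for 10 minutes, and 50000000 paired reads of 50 bp are stated for each sample. The submitters' processing notes name hg38 as the build and, as tools, MACS2, deepTools, BWA 2.2.1, fastp 0.23.2, SAMtools 1.8 and DRAGEN, with no order or settings. Each deposited list belongs to 1 library. For every peak the authors' caller wrote a fold enrichment, which is a linear ratio over background, and a −log10 p-value and −log10 q-value, with q up to 0.05. The lists hold no counts, so depth and counting error are unknown and a longer list may come from a deeper library.

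Only chromosomes 1 to 22 and X were used. Gene intervals came from the RefSeq GRCh38.p14 table, without 153 protein-coding genes that it lists on scaffolds under a chromosome's name; exons and introns were not distinguished. Strand came from the RefSeq promoter table, and CCND1, CCND2 and MYC were taken as plus-strand genes. Overlap meant at least 1 bp. Ends are 1 kb either side of each gene end. Interval functions were tested on simulated data. Exact permutation tests compared peak numbers per gene and factor over 2 against 2 libraries, with no test over the list of genes. All members, up to 3 regions per class and the strongest WT FOXA1 region were named by rule. Examples of weak or single-library peaks and the WT regions at gene starts were chosen after their values were seen. The members, gene lists and tests were chosen with earlier results of these data known.

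Alternatives were windows of 10 and 100 kb, peaks with a q of 0.001 or less, 100 bp either side of each summit, 50% overlap, lists of equal length, other cover minimums, each library left out and a replicate block. Python 3.11.15, pandas 2.3.3, NumPy 2.4.6, SciPy 1.17.1 and matplotlib 3.10.9 were used.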

Additional observations from a re-analysis of the deposited data

How the results depend on the processing

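Of the results on counts, 96 values under the alternatives stayed within 1.5 times the reported one and 21 did not. With 100 kb either side, lost FOSL2 regions numbered 22, lost FOXA1 regions 4 at 4 genes, gained FOXA1 regions 1 and WT FOXA1 regions 66, since more sequence is counted. With lists cut to equal length by fold enrichment, 3 lost FOSL2 regions at 1 gene were left, FOXA1 regions on FOSL2 regions numbered 0 and WT FOXA1 regions 7, from fewer peaks. Leaving out single libraries, so that a call needs fewer of them, gave 13 to 44 lost FOSL2 regions, 0 to 5 gained FOSL2 regions, 2 to 4 lost, 3 to 5 kept and 0 to 6 gained FOXA1 regions, 48 to 92 WT FOXA1 regions, and 0 to 1 genes under H3K9me3. The highest values came without the second FOSL2 library lacking doxycycline (44), the first FOSL2 library with doxycycline (5), the first WT FOXA1 library (92) and the second H3K9me3 library (1). Any cover at all gave 2 genes under H3K27me3 and 3 under H3K9me3, and cover of either end gave 2 under H3K27me3. CDKN2A and CDKN2B were the 2 members without a peak under every window, threshold and subset of lists tried, and no other member joined them. For CDKN2A and CDKN2B only the 100 kb window could have changed this, since the other settings can only take peaks away.

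Deviations of same-numbered libraries correlated at -0.04 for FOSL2 and 0.13 for FOXA1. With 2 pairs per factor this cannot tell whether replicate numbers pair the libraries. With the replicate block the CDK6 FOSL2 difference (doxycycline minus none) was again -9 peaks, with an exact p of 0.5, the smallest that 2 pairs allow, and the block changed no call. Leaving out single libraries moved the differences in peak number, doxycycline minus none: the CDK6 FOXA1 difference ran from -1 to 4 (1.5 with all libraries), that of CDKN1B FOXA1 from -0.5 to 0.5 (0 with all) and that of MYC FOSL2 from -8 to -1 (-4.5 with all). The first 2 took either sign and had an exact p of 1 with all libraries. Without read counts, a peak absent from a short list may lie below its threshold, and no detection limit can be given.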
